A study of Sus scrofa with 20 samples.

Results

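The genes described here are 8 genes of Leydig cell steroid synthesis. They were chosen by name, with earlier results of these data known. Their RNA was measured by RNA-Seq in the testis and liver of boars with low or high androstenone. Each gene was looked up by its symbol among the 21755 reference IDs of the count data, and 7 of the 8 were found, each with a single ID. STAR, the carrier that brings cholesterol into the mitochondrion, had no matched reference ID and was not analysed here. The 7 genes were LHCGR (NM_214449.1), NR5A1 (NM_214179.1), CYP17A1 (NM_214428.1), CYB5A (NM_001001770.1), HSD3B1 (NM_001004049.1), CYP21A2 (NM_214433.1) and INSL3 (NM_213970.1). The 20 samples came from 10 crossbred boars (Duroc sires on an F2 of Leicoma, German Landrace and Large White) labelled as 116 days old. Of these boars, 5 formed the low and 5 the high androstenone group according to the androstenone measured in neck fat, and 1 testis and 1 liver library was made from each animal. The animals were not treated, so the groups differ by a selected trait, and whole tissue pieces were used, not sorted cells.

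Leydig cells lie between the seminiferous tubules and make the steroids of the testis. Luteinizing hormone binds LHCGR on their surface, and the signal passes through cAMP to regulators such as NR5A1, which switch on the steroid enzymes. Cholesterol is cut to pregnenolone in the mitochondrion and is then processed by CYP17A1, HSD3B1 and further enzymes, while CYB5A, cytochrome b5, assists CYP17A1 and in the boar directs it towards the 16-androstene steroids, of which androstenone is one. Androstenone is stored in fat, is cleared by the liver and gives a taint to pork. INSL3 is a peptide hormone of the Leydig cell and serves as a marker of that cell type.

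The testis libraries held between 6161397 and 15975386 counts and the liver libraries between 5796973 and 26783002, and 5 libraries of each tissue were over 10000000 counts. Levels are given as counts per 1000000 (CPM) after TMM scaling within a tissue. By library totals, without TMM scaling, 3 counts were worth 0.188 to 0.487 CPM in a testis library and 0.112 to 0.518 CPM in a liver library. The tissue labels were checked on marker genes. All 5 spermatid markers found were higher in testis, and all 7 hepatocyte markers found, with ALB as the most abundant, were higher in liver. Since whole tissue was used, fewer cells of a type and less RNA per cell cannot be told apart. CPM depends on transcript length, so levels were compared between samples and not between genes.

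The first comparison asked which of these genes were particular to the testis in these boars. Of the 7 genes, 5 were higher in testis, namely INSL3, CYP17A1, LHCGR, NR5A1 and CYP21A2, and the remaining pair, CYB5A and HSD3B1, was read in all 20 samples and did not pass the test. A gene was called when it differed by 1.5-fold or more and the adjusted p of the quasi-likelihood test in edgeR was under 0.05. The tissues differed so widely that 75.7% of all 19065 tested IDs were called, 43.5% as higher in testis and 32.2% as higher in liver (80.2% had an unadjusted p under 0.05), so the calls alone do not set the 5 genes apart. The median log2 fold change of the 7 genes was 6.97, against 0.31 over all tested IDs. That median is the value of NR5A1, which had 0 counts in all 10 livers, so its size is not a measured fold.

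**Figure D1:**
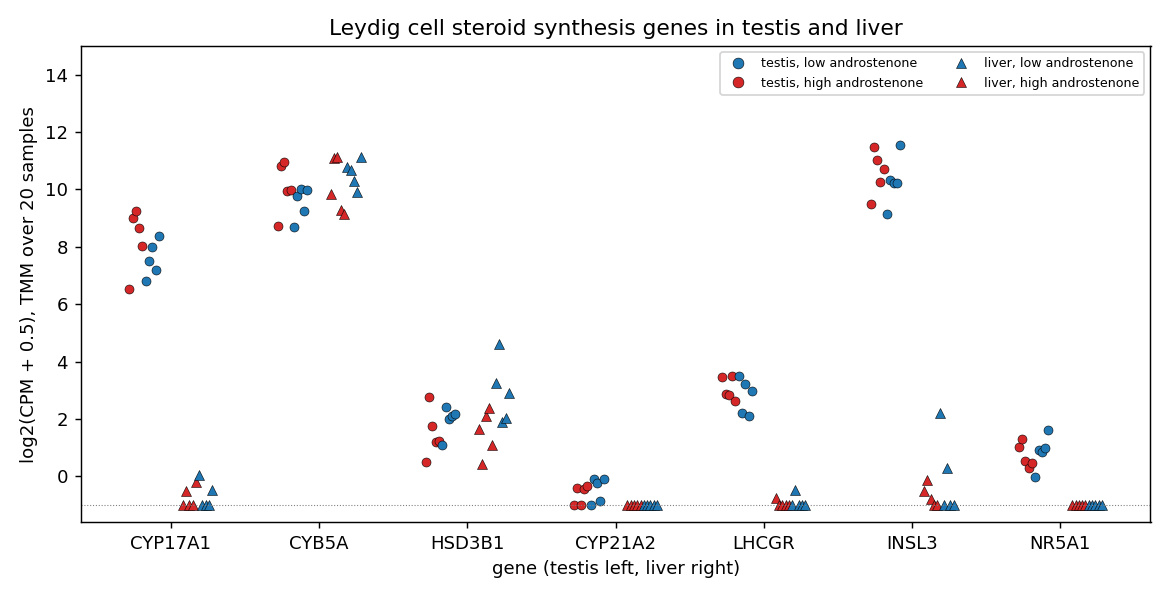
Level of the 7 genes in each of the 20 samples, as log2(CPM + 0.5) after TMM scaling over all 20, with testis as circles on the left and liver as triangles on the right of each gene, and the dotted line marking 0 counts. CYP17A1, LHCGR, INSL3 and NR5A1 form separate bands in the tissues, CYP21A2 sits near the line, and CYB5A and HSD3B1 overlap between the tissues.

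LHCGR, the receptor for luteinizing hormone, had 1106 counts over the 10 testis samples and 4 counts over the 10 liver samples, 3 of them in 1 low androstenone boar. The pooled counts were 155-fold higher in testis, with a 95% counting interval of 60.3 to 569. In edgeR its log2 fold change was 7.15 (SE 0.45), and it was 8.55 without the low androstenone liver that held 3 counts (replicate 2) and 8.02 without high androstenone liver replicate 1. NR5A1, steroidogenic factor, which also occurs in Sertoli cells, was read in all 10 testis samples with 215 counts in all and had 0 counts in all 10 liver samples. Taking 3 counts over the 10 livers as the limit, NR5A1 was at least 40.1-fold higher in testis. In both genes the lowest testis sample lay above the highest liver sample, a separation whose share over all IDs was not counted.

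CYP17A1, which turns pregnenolone and progesterone into androgen precursors, had 42530 counts in testis and 10 in liver, spread over 4 liver samples. The pooled level in testis was 2379.6-fold that in liver, with a counting interval of 1294 to 4963, and the edgeR log2 fold change was 11.11 (SE 0.55), or 11.76 without low androstenone liver replicate 1, which held 5 of the counts. INSL3 had 243222 counts in testis and 49 in liver, a ratio of 2777 with a counting interval of 2101 to 3754 and a log2 fold change of 12.02 (SE 0.75). Of the 49 liver counts of INSL3, 39 were in 1 low androstenone sample (replicate 1) and 5 in another (replicate 3), while 5 livers had none. Without replicate 1 the log2 fold change was 13.34, so the ratio and its counting interval are set largely by that liver. In these genes, too, the tissues did not overlap, and the spread among testis samples was small beside the distance to liver. How many of all IDs separated the tissues fully was not counted, so the separation does not set these genes apart.

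CYP21A2, the 21-hydroxylase of adrenal corticoid synthesis, was rare in testis as well. It had 31 counts over the 10 testis samples, with 3 libraries at 0 and at most 8 counts in any of them, and 0 counts in all 10 livers. The level in testis was at least 5.78-fold higher when 3 counts over the 10 livers were taken as the limit. The tissues overlapped at 0, and with so few counts the fold has little precision.

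CYB5A and HSD3B1 behaved otherwise. CYB5A also serves fatty acid desaturation and drug metabolism in the liver. After TMM scaling over all 20 samples it ranged from 408 to 2003 CPM in testis and from 570 to 2239 CPM in liver. Its log2 fold change for testis over liver was -0.53 (SE 0.30), with an adjusted p of 0.109 in edgeR. HSD3B1, which converts the hydroxyl group of early steroids to a ketone, had 501 counts in testis and 619 in liver, with a log2 fold change of -0.70 (SE 0.37) and an edgeR adjusted p of 0.0871. Neither gene passed the test, and the sign of both depended on the scaling, since with library totals alone the values became 0.52 for CYB5A and 0.34 for HSD3B1 while the median of all IDs moved from 0.31 to 1.28. With that scaling 11348 IDs were called higher and 3577 lower in testis, against 8293 and 6143 after TMM. HSD3B1 was called lower in testis when high androstenone testis replicate 2 (-1.01) or low androstenone liver replicate 3 (-0.80) was left out. HSD3B enzymes form a family of closely related genes, and how reads that fit several references were counted is not given in the sources used here, so the HSD3B1 counts may hold reads of related genes.

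Among the other genes of the pathway, the calls were read against the 43.5% of all IDs that were higher in testis and the 32.2% higher in liver. Of the 9 of 27 listed steroid enzymes and cofactors with a reference ID, 4 were higher in testis and 3 lower, shares near those of all IDs. Those higher in testis were the steroid reductases SRD5A1 (log2 fold change 7.42) and SRD5A2 (3.24), the cortisol-inactivating HSD11B2 (4.85) and the estradiol-forming HSD17B1 (1.96). Those higher in liver were the cortisol-regenerating HSD11B1 (-6.85), the steroid sulfotransferase SULT2A1 (-3.87) and HSD17B7 (-2.98), which acts in cholesterol synthesis. Of the 11 cholesterol supply genes found, 2 were higher in testis, among them the hormone-sensitive lipase LIPE (6.89), and 6 were lower. Of 19 IDs of LH signalling genes, 4 were higher in testis, among them NR0B1 (4.05), an orphan receptor that restrains NR5A1, and CREM (3.76), a cAMP-responsive regulator of spermatids, and 12 were lower. Of these 12, however, 7 were IDs of GNAS (-1.88 to -1.66) and 2 were IDs of NR2F2, so that count and the median of the list rest largely on 1 gene. After TMM scaling the median log2 fold changes were 0.32 for the enzymes, -0.79 for cholesterol supply and -1.47 for LH signalling, beside 0.31 over all IDs.

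The main question of the study was how testis and liver differ between boars of high and low androstenone. In testis, none of the 7 genes passed the threshold. CYP17A1 and CYB5A were higher on average in the high androstenone group, by 0.86 and 0.65 on the log2 scale, and the differences of the other 5 were smaller than their standard errors. In edgeR 0 of 18340 tested IDs were called in testis (0%), with 1741 (9.49%) at an unadjusted p under 0.05, and 1 of the 7 genes, CYP17A1, was among the latter. DESeq2 called 120 IDs, 38 higher and 82 lower in high androstenone, and none of the 7 genes. The smallest adjusted p over all IDs in edgeR was 0.236.

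**Figure D2:**
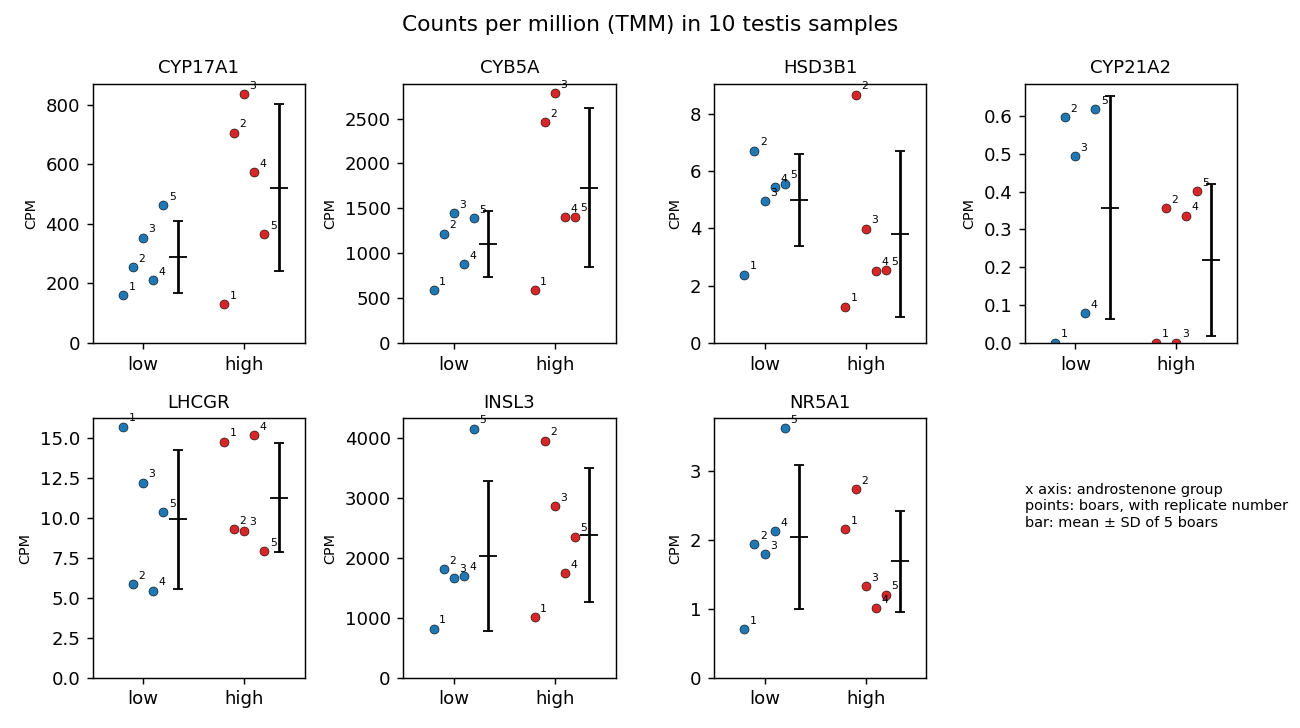
Level of each of the 7 genes, in CPM after TMM scaling over the 10 testis samples, in low (blue) and high (red) androstenone boars, with the replicate number at each point and the bar giving the mean and SD of 5 boars. The groups overlap in every gene, and in CYP17A1, CYB5A and INSL3 the boar numbered 1 in each group lies at the bottom.

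CYP17A1 was measured at 160.5, 254, 353, 209.8 and 463 CPM in low androstenone replicates 1 to 5 and at 129.5, 706, 836, 573 and 365 CPM in high androstenone replicates 1 to 5. Of the 5 high androstenone boars 4 lay above the low group's median, 3 of them above every low androstenone boar, whereas the fifth had the lowest value of all 10. The group means were 288 ± 121 CPM in low and 522 ± 280.0 CPM in high androstenone (SD, n = 5 each). The log2 fold change was 0.86 (SE 0.39, 95% interval 0.02 to 1.69), with an unadjusted p of 0.0453 and an adjusted p of 0.513 in edgeR. The exact two-sided permutation test on log2(CPM + 0.5), which with 5 against 5 samples allows no p below 0.00794, gave p = 0.230. Without high androstenone replicate 1, the lowest of all 10, the log2 fold change was 1.12 and the exact permutation p 0.0317, unadjusted. That boar ran against the difference, and the exact permutation p with other boars left out is not given here. Over all single boars left out the log2 fold change ranged from 0.62 to 1.12. The difference in mean log2(CPM + 0.5) ranged from 0.47 to 1.14, against 0.70 with all 10 boars.

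CYB5A followed the same boars. It was measured at 587, 1219, 1448, 876 and 1390.4 CPM in low androstenone replicates 1 to 5 and at 589, 2462, 2780.1, 1403 and 1408 CPM in the high androstenone replicates. High androstenone replicates 2 and 3 stood above all others, and replicate 1 of each group lay lowest. The log2 fold change was 0.65 (SE 0.35, 95% interval -0.10 to 1.39), with an adjusted p of 0.569 in edgeR and an exact permutation p of 0.294, and it fell to 0.41 without high androstenone replicate 3. The ratio of CYB5A to CYP17A1 within a boar, taken because both proteins act together, ranged from 2.45 to 4.79 over the 10 testes. As log2 it was 1.96 ± 0.25 in low and 1.79 ± 0.33 in high androstenone (SD, n = 5 each), a difference of -0.17 with an exact two-sided permutation p of 0.397.

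INSL3, the Leydig cell hormone, was measured at 819.8, 1811, 1667, 1702 and 4156 CPM in low androstenone replicates 1 to 5 and at 1005, 3954, 2859, 1738 and 2352 CPM in the high androstenone replicates. The highest of all 10 values was in a low androstenone boar, and the groups overlapped nearly throughout. The log2 fold change was 0.23 (SE 0.39, adjusted p 0.870 in edgeR), and it changed sign to -0.03 without high androstenone replicate 2.

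LHCGR and NR5A1, the receptor and the regulator at the head of the pathway, did not separate the groups. LHCGR was measured at 15.7, 5.82, 12.2, 5.44 and 10.3 CPM in low and at 14.7, 9.26, 9.17, 15.1 and 7.90 CPM in high androstenone replicates 1 to 5. Its log2 fold change was 0.18 (SE 0.30), with a 95% interval of -0.44 to 0.81 and an adjusted p of 0.860 in edgeR, and with 1 boar left out it ran from 0.03 (without low androstenone replicate 4) to 0.40 (without low androstenone replicate 1). NR5A1 was measured at 0.70, 1.94, 1.79, 2.13 and 3.62 CPM in low and at 2.16, 2.73, 1.33, 1.01 and 1.21 CPM in high androstenone replicates 1 to 5, from at most 46 counts a library. Its log2 fold change was -0.23 (SE 0.38, adjusted p 0.870 in edgeR), and it became 0.10 without low androstenone replicate 5. NR5A1 moved with library size, at 1.79 to 3.62 CPM (median 2.16) in the 5 testis libraries over 10000000 counts and at 0.70 to 1.94 CPM (median 1.21) in the other 5, and the part of library size in its values was not tested.

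HSD3B1 and CYP21A2 were lower on average in high androstenone testis, without passing the test. HSD3B1 was measured at 2.38, 6.72, 4.94, 5.44 and 5.56 CPM in low and at 1.26, 8.67, 3.99, 2.52 and 2.54 CPM in high androstenone replicates 1 to 5. In the high group 4 boars lay below the low group's median and 1 lay above every low androstenone boar. The log2 fold change was -0.36 (SE 0.42, adjusted p 0.800 in edgeR, exact permutation p 0.286), and it ran from -0.98 without high androstenone replicate 2 to -0.10 without high androstenone replicate 1. CYP21A2 had 20 counts in the low and 11 in the high group, with a log2 fold change of -0.74 (SE 0.81), a difference that was not detectable at this depth and ran from -1.18 to -0.34 with 1 boar left out.

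**Figure D3:**
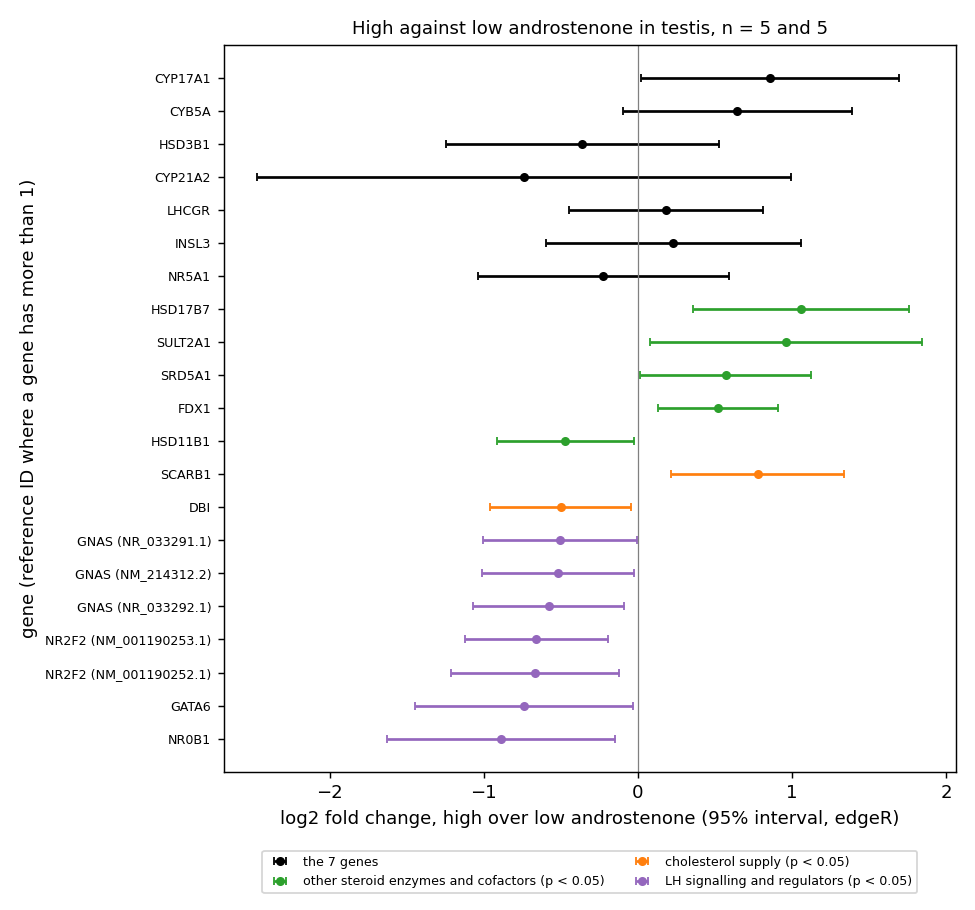
Log2 fold change of high over low androstenone in testis with its 95% interval from edgeR (5 boars a group), for the 7 genes (black) and for the IDs of 3 lists with an unadjusted p under 0.05 (colours). The interval of CYP17A1 starts at 0.02, those of the other 6 genes include 0, and no adjusted p was under 0.05.

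Among the listed steroid enzymes none was called in testis. Of 9 enzymes and cofactors tested, 5 had an unadjusted p under 0.05, where 9.49% of all IDs did. This list and those that follow were chosen with earlier results of these data known, so the shares do not test the lists. Positive log2 fold changes were found for HSD17B7 with 1.06 (SE 0.33, unadjusted p 0.00569, adjusted p 0.361 in edgeR), SULT2A1 with 0.96 (SE 0.41), SRD5A1 with 0.57 (SE 0.26) and ferredoxin FDX1, which hands electrons to mitochondrial P450 enzymes, with 0.52 (SE 0.18). HSD11B1 had a negative value of -0.47 (SE 0.21). Their adjusted p-values in edgeR ran from 0.361 to 0.509, the median of the list was 0.18 beside -0.02 over all IDs, and the count fell to 2 without low androstenone replicate 2 and to 3 without low replicate 4 or high replicates 2, 3 or 5.

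In cholesterol supply 2 of 11 IDs had an unadjusted p under 0.05, where 9.49% of all IDs did. SCARB1, the receptor that takes up cholesterol from high density lipoprotein, had a log2 fold change of 0.78 (SE 0.26, unadjusted p 0.00972, adjusted p 0.411 in edgeR), and DBI, a ligand of the mitochondrial protein TSPO, had -0.50 (SE 0.22). TSPO itself was at -0.01. The count was 1 without low androstenone replicate 2 or high replicates 4 or 5, and 4 without high replicate 1.

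No LH signalling gene was called in testis. Of their 19 IDs 3 had a positive log2 fold change. In testis 7 had an unadjusted p under 0.05, where 9.49% of all IDs did, all of these 7 with negative values. The median was -0.48. These were NR0B1 (-0.89, SE 0.35), the transcription factors GATA6 (-0.74, SE 0.33) and NR2F2 (-0.67 and -0.66 for its 2 IDs), and 3 of 7 IDs of GNAS, the stimulatory G protein subunit. The IDs of GNAS, and those of NR2F2, are transcripts of 1 gene that share sequence, so they are not independent, and the smallest adjusted p of the list was 0.403 in edgeR. The count was 2 without low androstenone replicate 2 or high replicate 3, 3 without high replicate 4 and 4 without high replicate 5. Over all single boars left out it ranged from 2 to 10. The markers of other testis cells were summed as well. The summed level of the 5 Sertoli markers found of 10 was 202 to 307 CPM in low and 91.4 to 284 CPM in high androstenone, that of 2 of 6 peritubular and vessel markers 210.5 to 786.5 against 93.2 to 416 CPM, and that of 3 of 5 macrophage markers 4.06 to 16.7 against 6.22 to 9.60 CPM. The groups overlapped in each, and 4 of the 5 low androstenone testes lay above every high androstenone testis for the macrophage markers. Single markers with an unadjusted p under 0.05 in edgeR were ACTA2 of smooth muscle cells (-0.99) and UCHL1 of spermatogonia (-0.98). CSF1R (-0.78) and AIF1 (-0.71) of macrophages were the others, and the adjusted p-values in edgeR ran from 0.302 to 0.523. Of the other members of these lists, KIT (0.10), SYCP3 (0.15) and CD14 (0.02) had positive values, SPO11 (-0.30) and PECAM1 (-0.35) negative ones. The summed level of the 4 spermatogonia and meiotic cell markers was 669 to 801 CPM in low and 606 to 887 CPM in high androstenone, and that of the 5 spermatid markers 2285 to 7471 against 4283 to 6684 CPM. The part of these cells in the values of the lists was not tested.

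In liver, 4 of the 7 genes had enough counts to be tested between high and low androstenone, and none was called. In edgeR 0 of 15855 IDs were called (0%) and 465 (2.93%) had an unadjusted p under 0.05, and DESeq2 called 7 IDs, none of them among the 7 genes. HSD3B1 was 1 of the 4 with an unadjusted p under 0.05. It was measured at 5.91, 15.8, 2.37, 2.60 and 4.94 CPM in low and at 1.82, 0.61, 2.66, 3.60 and 1.27 CPM in high androstenone replicates 1 to 5. All 5 high androstenone livers lay below the low group's median, though 2 of them were above the lowest low androstenone livers. The log2 fold change was -1.68 (SE 0.55, 95% interval -2.84 to -0.51), with an unadjusted p of 0.00803, an adjusted p of 1.00 in edgeR and an exact permutation p of 0.0556. Without low androstenone replicate 2, the highest liver, it was -0.99, and the exact permutation p was 0.111. HSD3B1 also moved with library size in liver, at 1.82 to 15.8 CPM (median 4.94) in the 5 libraries over 10000000 counts and 0.61 to 3.60 CPM (median 2.37) in the others, and with the library size class as a covariate the log2 fold change was -1.29.

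CYB5A in liver was measured at 1162, 1095, 912, 698 and 1574 CPM in low and at 634, 1582, 1552, 475 and 438 CPM in high androstenone replicates 1 to 5. The low androstenone livers lay between, with 2 high androstenone livers near their upper end and 3 below them all. The log2 fold change was -0.22 (SE 0.41, adjusted p 1.00 in edgeR), with a 95% interval of -1.10 to 0.67. CYP17A1, with 7 counts in low and 3 in high androstenone livers, gave no detectable difference. INSL3 had 44 counts in low and 5 in high androstenone livers, and its log2 fold change of -2.71 (SE 1.32, adjusted p 1.00 in edgeR) became -0.26 without low androstenone replicate 1, which held 39 of the counts. The liver with the 39 INSL3 counts had a summed spermatid marker level of 9.25 CPM, which ranked the second of the 10 livers, whose lowest value was 3.25 CPM. The liver that ranked above it, high androstenone replicate 3, held only 1 INSL3 count. ODF2 was the most abundant of these markers in liver, with a mean of 4.75 CPM, so the rank rests largely on 1 gene. The liver with the 39 INSL3 counts also held 5 of the 10 liver counts of CYP17A1. A relation between the spermatid marker level and INSL3 in liver was not tested.

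Whether the difference between high and low androstenone was itself different in testis and liver was tested as an interaction over all 20 samples. In edgeR 0 of 19065 IDs were called (0%), with 890 (4.67%) at an unadjusted p under 0.05, and DESeq2 called 1, which was not among the 7 genes. INSL3 was the only 1 of the 7 under 0.05 before adjustment, with 3.10 (SE 1.35, unadjusted p 0.0302, adjusted p 1.00 in edgeR), and this fell to 0.47 without the liver that held 39 counts. For HSD3B1 the interaction was 1.43 (SE 0.74, unadjusted p 0.0650), for CYP17A1 1.78 (SE 1.38) and for CYB5A 0.94 (SE 0.61). With 1 sample left out, the HSD3B1 interaction ran from 0.72 (without low androstenone liver replicate 2) to 1.66, and was 0.81 without high androstenone testis replicate 2. That of CYP17A1 ran from 0.48 (without low androstenone liver replicate 1) to 2.93 (without high androstenone liver replicate 5). The interval of the HSD3B1 interaction ran from -0.10 to 2.95.

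The genes varied widely between boars of the same group, so their joint variation was examined over the 10 testis samples. In the 21 pairs of the 7 genes, Pearson's r on log2(CPM + 0.5) ranged from -0.62 to 0.96 and was positive in 15. After Benjamini-Hochberg adjustment over the 21 pairs, 3 pairs had a permutation p under 0.05, all among CYP17A1, CYB5A and INSL3.

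**Figure D4:**
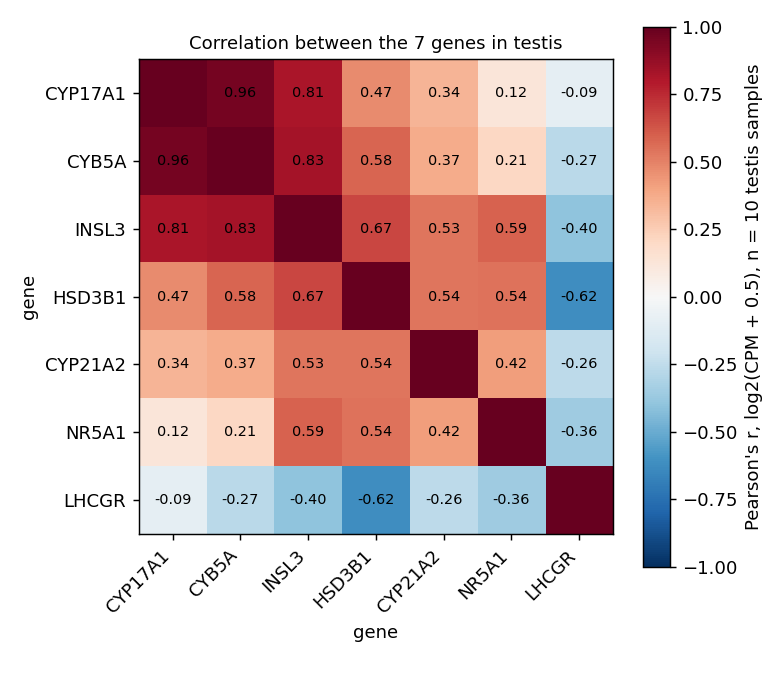
Pearson's r of log2(CPM + 0.5) over the 10 testis samples for every pair of the 7 genes, from blue (-1) to red (1). CYP17A1, CYB5A and INSL3 form a red block with r of 0.81 to 0.96, and the row of LHCGR is blue off the diagonal.

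CYP17A1 and CYB5A were the closest pair. Their r was 0.955 (adjusted permutation p 0.00063) and Spearman's rho 0.879 (adjusted permutation p 0.0323), and r was 0.914 (n = 8, exact permutation p 0.000546) without the 2 samples farthest from the median of CYP17A1. After the group means were subtracted r was 0.948, so the relation was also present within the androstenone groups, and with any 1 boar left out it ran from 0.939 to 0.978. Among the 10425 IDs with a mean of at least 5 CPM in testis, 0.0768% had an r with CYP17A1 as high as this.

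INSL3 was correlated with both, with less certainty. With CYP17A1 its r was 0.813 (adjusted permutation p 0.0341), rho 0.794 (adjusted permutation p 0.0979) and r 0.774 without the 2 farthest samples (n = 8, exact permutation p 0.0257). With CYB5A its r was 0.834 (adjusted permutation p 0.0334), rho 0.636 (adjusted permutation p 0.229), and without the 2 farthest samples r was 0.599 (n = 8, exact permutation p 0.127). The r of CYB5A and INSL3 ran from 0.766 to 0.928 with any 1 boar left out and was 0.837 after subtraction of the group means. An r as high with INSL3 was found in 0.758% and 0.518% of IDs, respectively. When 1 boar was left out the number of pairs with an adjusted p under 0.05 ranged from 1 to 3, and it was 1 without low androstenone replicates 1, 2 or 4 or high androstenone replicates 2, 3 or 5. The relation was not recomputed within libraries over and under 10000000 counts, which hold 5 testis samples each.

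**Figure D5:**
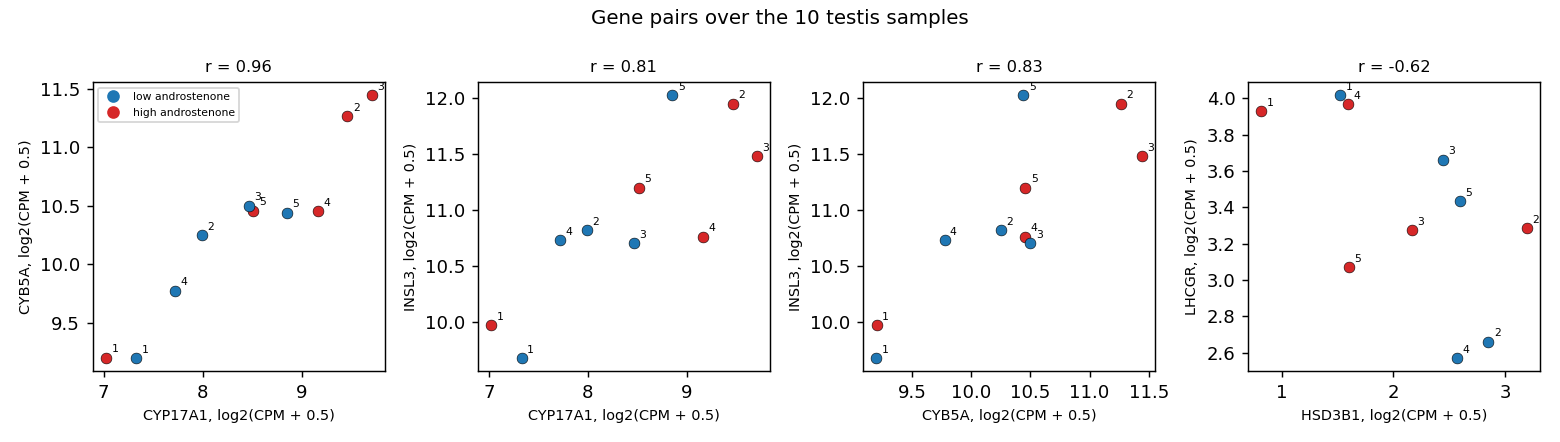
Scatter of 4 gene pairs over the 10 testis samples, both axes in log2(CPM + 0.5), with low androstenone boars in blue, high in red and the replicate number at each point. The points of CYP17A1 and CYB5A lie along a line through both groups, replicate 1 of each group lies at the lower left of the first 3 panels, and HSD3B1 and LHCGR slope downwards with r of -0.62.

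HSD3B1 was only loosely tied to these genes over all 10 boars, with r of 0.472 with CYP17A1, 0.583 with CYB5A and 0.667 with INSL3 (adjusted permutation p 0.317, 0.226 and 0.192). Within the groups, after subtraction of the group means, the values were 0.741, 0.842 and 0.814. The mean of HSD3B1 was below that of the low group in high androstenone boars, while the means of the other 3 genes were above it. LHCGR, the receptor, had a negative r with all 6 other genes, from -0.62 with HSD3B1 to -0.0878 with CYP17A1, and none passed the adjusted test (the smallest adjusted permutation p was 0.226). With 1 boar left out the r of LHCGR and CYP17A1 ran from -0.300 to 0.144. NR5A1 had r of 0.12 with CYP17A1, 0.209 with CYB5A and 0.589 with INSL3, none with an adjusted permutation p under 0.05, at levels of at most 46 counts a library. CYP21A2 had too few counts for its correlations to be read.

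Markers of other testis cells moved with some of these levels. The summed level of 4 of 10 spermatogonia and meiotic cell markers had r of -0.758 with CYP17A1 and -0.771 with CYB5A over the 10 samples, that of the Sertoli markers 0.756 with HSD3B1 and that of the macrophage markers 0.736 with NR5A1. These values were the strongest between the genes and the marker sums, and the share of all IDs with an r as high was not counted. NR5A1 also had r of 0.713 with the log10 of total counts. The correlations are descriptions over 10 libraries whose CPM are shares of a scaled library total, and the part of cell composition in the joint variation was not tested.

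The genes whose profile over the 10 testes was most like that of each gene were listed by r after subtraction of the group means, with no test, among IDs with a symbol and a mean of at least 5 CPM. For CYP17A1 they included the glycolytic isomerase GPI (0.967) and EIF2B2 (0.967), a subunit of a translation initiation factor. For CYB5A they were SELENBP1 (0.976), a selenium-binding protein, the lysosomal membrane protein GLMP (0.972) and SLC25A17 (0.969), a carrier of the peroxisomal membrane. For INSL3 they were DHRS4 (0.962), a reductase of carbonyl compounds, TAGLN2 (0.950), an actin-binding protein, and the hyaluronidase HYAL2 (0.947). HSD3B1 was most like HEBP1 (0.940), a heme-binding protein, CPT1A (0.926), which imports fatty acids into mitochondria, and DNASE2 (0.906), a lysosomal nuclease. LHCGR was most like ZNF512 (0.885), the epithelial adhesion molecule EPCAM (0.877) and DDRGK1 (0.860), NR5A1 was most like CRYL1 (0.940), MAPK8IP3 (0.908) and RILPL1 (0.894), and the profile of CYP21A2, from 31 counts, was most like APIP (0.876), AP1G2 (0.841) and TTC38 (0.837).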

How the data were processed

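RNA of testis and liver from 10 boars was sequenced on 1 lane per sample. The authors called bases with CASAVA 1.7, aligned reads with BWA to RefSeq mRNA and UniGene sequences of Sscrofa 9.2, and deposited raw read counts per reference ID without normalization. How multiply aligned reads were counted is not given in the sources used here. Each sample lists 21785 lines for 21755 IDs, and 10 IDs listed 4 times with equal counts were used once. A RefSeq gene table (Sscrofa11.1, used for names only) gave a symbol to 6654 IDs. The 8 genes and all lists were chosen with earlier results of these data known.

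Counts were tested with edgeR 4.0.16 in R 4.3.3 (TMM, quasi-likelihood test, at least 10 summed counts, Benjamini-Hochberg adjustment over all tested IDs), and the thresholds for a call were an adjusted p of 0.05 and a fold of 1.5. Means of the 2 groups of each tissue were compared between tissues, and the interaction was fitted over 20 samples. The testis and liver of a boar were treated as separate samples, since the labels do not tie them. Single genes were compared by exact permutation tests on log2(CPM + 0.5), and pairs by permutation with 100000 resamples. Intervals on pooled counts (95%) and limits of 3 counts cover counting error only. Genes were named by a rule: the 7 genes, pathway genes called or with an unadjusted p under 0.05 in testis (at most 6 a list, except that 7 IDs of LH signalling were described), and the 3 most alike IDs. A few genes that the rule names are not reported here. The procedure was tested on simulated data. Alternatives were DESeq2 1.42.0, RLE or total count scaling, other filters and pseudocounts, summed IDs, removal of hemoglobin IDs, a library size covariate, the replicate block and leaving out each sample. Counts of list IDs under these settings were added after the data were seen.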

Additional observations from a re-analysis of the deposited data

Results flagged for a closer look

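In 21 groups of 5 samples checked for a sample apart from the rest (Dixon's test, critical value 0.710), 2 groups had one, and chance alone gives about 1 in 20 groups. HSD3B1 in low androstenone liver replicate 2 was at 15.8 CPM, and its gap to the nearest sample took 0.736 of the group's range. INSL3 in low androstenone liver replicate 1 was at 2.71 CPM, with a gap of 0.801 of the range. Both lie in liver, and none of the testis groups had a sample apart for any of the 7 genes. The 21 groups are not all groups of the 7 genes. LHCGR in liver, with 3 counts in low and 1 in high androstenone, each in 1 library, was not flagged. In both of these groups 1 library held 100% of the summed CPM, so the missing flag does not mean that no sample stood apart.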

How the results depend on the processing

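The number of the 7 genes called was 5 for testis against liver under all alternatives except the filter of at least 100 counts (4 of the 6 tested, as CYP21A2 drops out) and 2 single samples left out (5 to 6), and 0 for both androstenone comparisons and the interaction under all alternatives run. With the replicate block the numbers were also 5, 0, 0 and 0, and CYP17A1 was at 0.71 and CYB5A at 0.53 in testis. The numbers do not pair the samples by the labels, and same-numbered samples of the 2 groups deviated together only weakly (mean r 0.0779 in testis and 0.0200 in liver, best with their own number in 1 of 5 in each). Same-numbered testis and liver samples had a mean r of 0.0715 in low and 0.166 in high androstenone, best with their own number in 2 of 5 in each. Other testis and liver pairs had -0.0183 and -0.0437. Since each boar gave both tissues, the 20 samples are not independent. With the block the number of cholesterol supply IDs at an unadjusted p under 0.05 in testis was 4, against 2. With total counts as the only scaling the tissue difference reversed to 0.34 for HSD3B1 and 0.52 for CYB5A, since that scaling moves all IDs. With single samples left out, signs reversed for INSL3 in testis (range -0.033 to 0.69), NR5A1 in testis (-0.49 to 0.10, and -0.41 to 0.032 in mean log2(CPM + 0.5)), the interactions of LHCGR (-1.54 to 3.04) and NR5A1 (-0.48 to 0.13), and CYP17A1 in liver (-0.14 to 0.11 in mean log2(CPM + 0.5), from 10 counts). The number of correlated pairs was 5 after subtraction of group means and 1 to 3 with 1 boar left out. The CYB5A to CYP17A1 log2 ratio difference ranged from -0.27 to -0.05 with 1 boar left out. For genes under about 10 counts a library, counting error limits what can be seen. Correlations within library size classes were not run, as each holds 5 samples.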
